A study of Mus musculus with 16 samples.

Results

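Wnt proteins are secreted ligands that bind Frizzled receptors, and in the canonical pathway this binding stabilizes β-catenin, which enters the nucleus and switches on target genes together with factors of the TCF/LEF family. Secreted proteins can hold the ligands back, either by binding them directly (the Sfrp proteins and *Wif1*) or by acting on their co-receptors (classical Dkk proteins). In the lung the pathway is used in development and is turned on again in fibrosis, and mesenchymal cells both send and receive its signals. The 9 genes described here were chosen by name as ligands (*Wnt2*, *Wnt5a*), secreted inhibitors (*Sfrp1*, *Sfrp2*, *Dkk3*, *Wif1*), a receptor (*Fzd1*), a feedback target (*Axin2*) and a nuclear factor (*Lef1*), out of 49452 genes measured. All 9 were found in every mouse's table.

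RNA of sorted tdTomato-positive lung cells was measured in 16 mice, 4 in each of 4 groups. *Acta2-tdT* mice (Acta2-CreERT2; tdTomatoflox) and *Pdgfra-tdT* mice (Pdgfra-CreERT2; tdTomatoflox) carry a tamoxifen-inducible Cre under the promoter of *Acta2*, the gene of α-smooth muscle actin, or of *Pdgfra*, a fibroblast receptor. Cells in which Cre was active stay red. Mice of each line received saline or bleomycin, a drug that injures the lung and leaves fibrosis, and lungs were taken on day 14, at 11 weeks of age. *Acta2-tdT* mice received tamoxifen in the food (400 mg/kg) starting on day 5 after instillation, so cells that switched *Acta2* on after the injury could be labelled. *Pdgfra-tdT* mice received 5 injections of 3 mg at 6 weeks of age, before the instillation. The lines therefore differ in promoter, tamoxifen route and time of labelling, and these cannot be told apart. Each gene is given on 2 scales. FPKM are the deposited values, fragments per kilobase of transcript relative to the mapped fragments of that mouse, and scaled values are the same FPKM divided by the sum over nuclear protein-coding genes of that mouse and multiplied by 1000000.

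The scaling matters because the sums differed between groups. Nuclear protein-coding genes summed to 231058 to 463127 FPKM in *Acta2-tdT* bleomycin, against 35602 to 57788 in *Acta2-tdT* saline, 29964 to 59840 in *Pdgfra-tdT* saline and 28512 to 137952 in *Pdgfra-tdT* bleomycin. The median FPKM of 1962 olfactory and vomeronasal receptor genes, a gauge of signal outside expressed genes, was 0 to 0.0689 in *Acta2-tdT* bleomycin and 0.282 to 0.297 in *Acta2-tdT* saline. After scaling that median was 0 to 0.298 in *Acta2-tdT* bleomycin and 4.96 to 8.06 in *Acta2-tdT* saline. As FPKM it was 0.0964 in *Pdgfra-tdT* saline mouse 3 and 0.0460 in *Pdgfra-tdT* bleomycin mouse 5, and between 0.250 and 0.293 in the other *Pdgfra-tdT* mice. Those 2 mice also stood apart by 7 endothelial markers, with summed FPKM of 349.7 and 918.0, against at most 93.2 in the other 14 mice. *Acta2* itself lay between 139.4 and 313.6 FPKM in *Acta2-tdT* saline and between 1229 and 3211 in *Acta2-tdT* bleomycin, against 0.831 to 19.4 in *Pdgfra-tdT* cells. In *Pdgfra-tdT* cells *Pdgfra* was between 0.977 and 3.82 FPKM, while *Acta2-tdT* cells held 0.273 to 0.562 FPKM after saline but 2.49 to 11.9 FPKM after bleomycin. With bleomycin *Pdgfra* was thus higher in *Acta2-tdT* cells as deposited, and its scaled values overlapped between the lines (10.8 to 25.7 in *Acta2-tdT* and 17.8 to 47.5 in *Pdgfra-tdT* cells). In *Pdgfra-tdT* cells *Tcf21* was at 0 in 6 of 8 mice and *Col1a1* did not exceed 13.3 FPKM. Of the whole list of 8 fibroblast markers, 0 to 7 reached 1 FPKM in a *Pdgfra-tdT* mouse, with 6 in saline mice 3 and 4 and 7 in bleomycin mouse 5. The list summed to 1047 scaled in saline mouse 3, to 1281 in bleomycin mouse 5 and to 90.2 to 432.9 in the other 6, against 531.4 to 728.8 in *Acta2-tdT* saline. Values of *Pdgfra-tdT* cells are therefore those of the cells collected, whose share of fibroblasts was not measured. In a bulk sample, fewer cells of a type and less RNA per cell cannot be told apart.

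The regions before the starts of 3 members are shown, since the pathway's own feedback target, receptor and nuclear factor are where a TCF/LEF motif would be looked for first. RefSeq start sites (GRCm38.p6) were given for 6 of the 9 members in 9 windows of 250 bases. The 4 words searched on both strands were CTTTG followed by 2 bases that are each A or T. One of the 9 windows held a word, against 14.8% of all 32851 windows of the same length. The 3 windows below lie before the start of *Axin2* (chr11:108920099-108920348, plus strand), before that of *Fzd1* (chr5:4758217-4758466, minus strand) and before the fourth start of *Lef1* (chr3:131156044-131156293, plus strand, inside the *Lef1* gene and in no GENCODE exon), and the capitals mark the word, read on the reverse strand and beginning at position -147 from the start.
Axin2: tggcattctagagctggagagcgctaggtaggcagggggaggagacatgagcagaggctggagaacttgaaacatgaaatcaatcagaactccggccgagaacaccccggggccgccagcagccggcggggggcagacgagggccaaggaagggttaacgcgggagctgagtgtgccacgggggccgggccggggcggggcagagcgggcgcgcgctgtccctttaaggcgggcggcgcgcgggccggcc
Fzd1: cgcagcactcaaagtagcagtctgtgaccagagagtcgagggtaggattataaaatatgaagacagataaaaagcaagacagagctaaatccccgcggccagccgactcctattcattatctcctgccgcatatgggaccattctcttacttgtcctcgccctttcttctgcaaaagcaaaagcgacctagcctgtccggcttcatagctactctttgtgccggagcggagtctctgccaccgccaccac
Lef1: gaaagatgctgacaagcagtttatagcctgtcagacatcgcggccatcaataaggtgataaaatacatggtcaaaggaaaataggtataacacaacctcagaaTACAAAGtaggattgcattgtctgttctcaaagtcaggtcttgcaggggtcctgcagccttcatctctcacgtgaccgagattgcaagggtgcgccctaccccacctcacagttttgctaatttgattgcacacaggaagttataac
The base composition also differed, with 69.2% G and C before *Axin2*, 51.2% before *Fzd1* and 44.8% before this *Lef1* start, where the median of all windows was 52.4%.

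With bleomycin, *Acta2-tdT* cells held the highest mean FPKM of all 9 genes and, after scaling, of 7 (the exceptions were *Sfrp2* and *Lef1*), and 5 of the 9 (*Sfrp1*, *Fzd1*, *Wif1*, *Dkk3* and *Wnt5a*) rose against saline on both. *Sfrp1* moved furthest, by 4.67 on the log2 scale of FPKM and by 3.70 after scaling. *Axin2*, *Lef1* and *Sfrp2* rose as deposited but not after scaling. *Wnt2* was high in 2 of the 4 bleomycin-treated mice alone. In *Pdgfra-tdT* cells no member passed a test between bleomycin and saline on either scale.

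**Figure D1:**
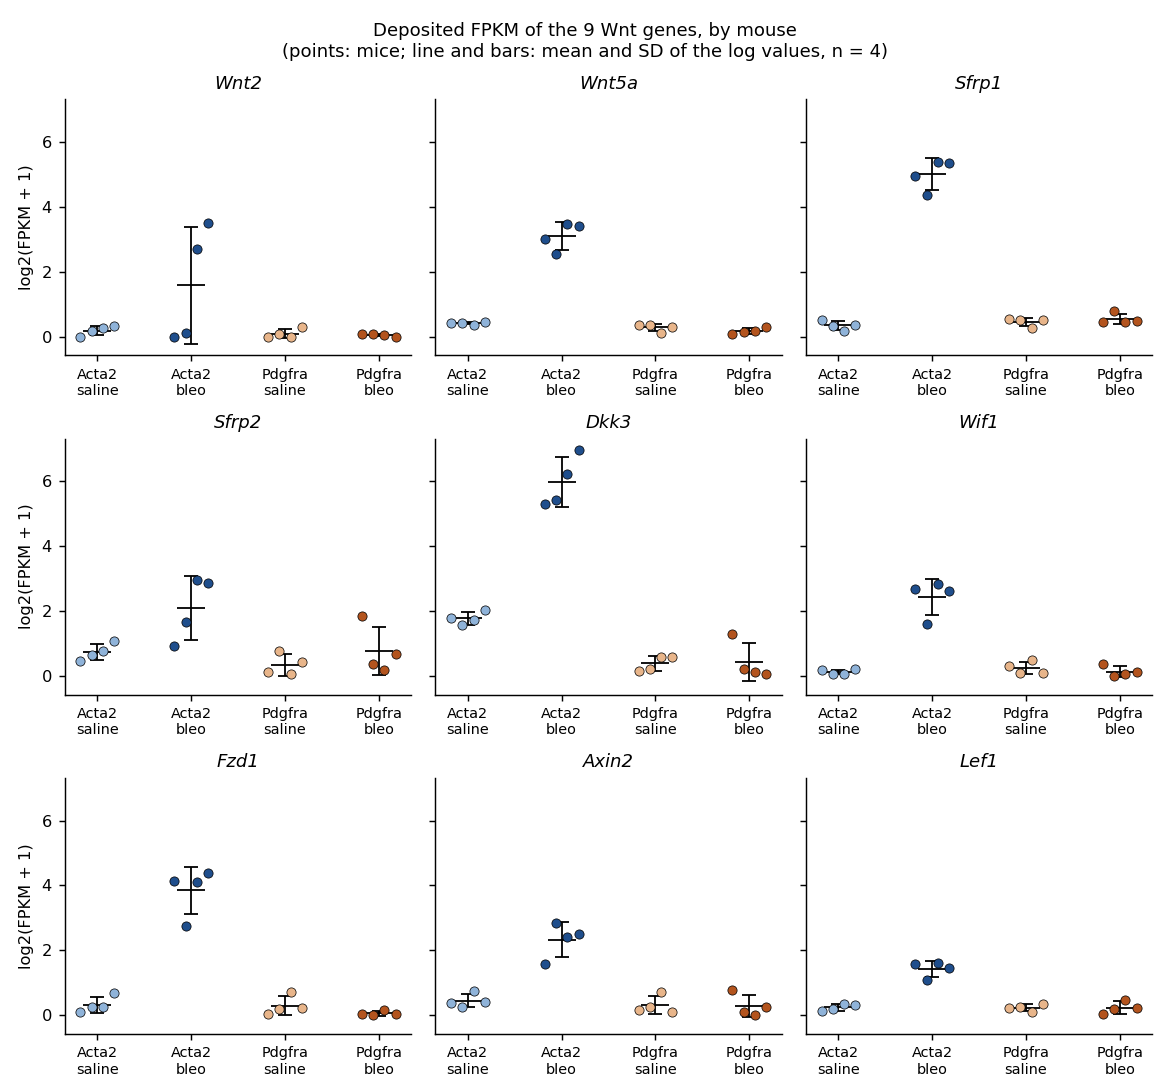
Deposited FPKM of the 9 genes, one panel per gene, on a log2(FPKM + 1) axis. Each point is a mouse, and the lines and bars are the mean and SD of the 4 log values. *Acta2-tdT* bleomycin stands above the other 3 groups for 7 of the genes, while *Wnt2* splits those mice into a pair at 5.54 and 10.4 FPKM and a pair at or below 0.0806, and *Sfrp2* overlaps its neighbours.

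Among the ligands, *Wnt5a* (ENSMUSG00000021994, chr14:28504750-28527447, GRCm38 here and throughout) acts mostly through non-canonical signalling. In *Acta2-tdT* saline mice 1 to 4 it was at 0.341, 0.348, 0.301 and 0.362 FPKM, and in bleomycin mice 5 to 8 at 7.09, 4.86, 10.2 and 9.66. The groups did not overlap. The means were 0.338 ± 0.026 and 7.94 ± 2.45 FPKM (SD, n = 4 each). After scaling, saline mice lay between 6.19 and 9.77 and bleomycin mice between 20.9 and 23.3, a 2.78-fold ratio of means that was also free of overlap. The log2 difference was 2.70 ± 0.26 (SE) as deposited and 1.39 ± 0.25 after scaling (limma with Benjamini-Hochberg adjustment, adjusted p = 1.6e-05 and 0.00181). Adjusted p here and for the next members are from a fit of genes at 1 FPKM or more in at least 4 mice. *Wnt5a*, *Sfrp1*, *Wif1*, *Fzd1*, *Axin2* and *Lef1* entered it through the bleomycin mice alone, and values without this filter are given below. In *Pdgfra-tdT* cells *Wnt5a* ranged from 0.0958 to 0.295 FPKM with saline and from 0.0630 to 0.220 with bleomycin.

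*Wnt2* (ENSMUSG00000010797, chr6:17988940-18030585), a canonical ligand of the lung mesenchyme in development, gave the most uneven values. Bleomycin-treated *Acta2-tdT* mice 5 to 8 had 0, 0.0806, 5.54 and 10.4 FPKM, and the scaled values were 0, 0.349, 12.7 and 22.5. The Cufflinks bounds imply about 0, 3, 218 and 323 fragments in them, so mice 7 and 8 were not near the limit of detection. Elsewhere *Wnt2* did not exceed 0.247 FPKM or about 13 fragments in any of the 12 other mice. The groups overlapped, and the exact two-sided permutation test gave p = 0.40 for bleomycin against saline in *Acta2-tdT* cells, where the smallest possible value is 0.0286 with 4 mice a group. Mice 7 and 8 also had the larger summed scaled values of 8 fibroblast markers, 5910 and 6835 against 4905 and 4516 in mice 5 and 6, and their neutrophil markers were lower, at 2621 and 5090 against 17912 and 10409. The mitochondrial share of FPKM was 25.1% and 26.2% in mice 7 and 8, against 49.6% and 43.4% in mice 5 and 6. Implied fragments per mouse were 8329510 and 7025800, against 5782110 and 4797470. The part of these traits in the *Wnt2* values was not tested.

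Among the secreted inhibitors, *Sfrp1* (ENSMUSG00000031548, chr8:23411502-23449632), which binds Wnt ligands, showed the widest step. *Acta2-tdT* saline mice 1 to 4 had 0.442, 0.261, 0.136 and 0.275 FPKM, and bleomycin mice 5 to 8 had 29.8, 19.7, 40.7 and 40.4. After scaling the 4 bleomycin mice lay close together, at 93.6, 85.1, 93.5 and 87.3 (mean 89.9 ± 4.4, SD), against 12.0, 7.33, 2.81 and 4.77 in saline mice, a 13.4-fold ratio of means. The log2 difference was 4.67 ± 0.31 (SE) as deposited and 3.70 ± 0.38 after scaling (limma, adjusted p = 8.0e-06 and 0.000108). The scaled levels of the other 3 groups overlapped one another, with 2.81 to 12.0 in *Acta2-tdT* saline, 3.26 to 15.5 in *Pdgfra-tdT* saline and 2.65 to 14.7 in *Pdgfra-tdT* bleomycin.

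*Dkk3* (ENSMUSG00000030772, chr7:112116017-112159057), a divergent member of the Dickkopf family whose link to Wnt signalling varies with the cell, was the most abundant of the 9 in *Acta2-tdT* cells with either treatment. In *Acta2-tdT* saline mice it stood above 92.9% to 95.7% of the 1962 receptor genes. Saline mice 1 to 4 had 2.45, 1.95, 2.31 and 3.12 FPKM, resting on about 134 to 281 implied fragments, and bleomycin mice had 38.2, 42.2, 73.6 and 123.1. On the scaled values, the 4 groups formed 3 levels. *Acta2-tdT* bleomycin held 119.9 to 265.8, *Acta2-tdT* saline 47.6 to 66.5, and the *Pdgfra-tdT* groups, which overlapped each other, at most 14.0 with saline and 10.7 with bleomycin. Bleomycin raised *Dkk3* in *Acta2-tdT* cells by 4.20 ± 0.42 (SE) on the log2 scale as deposited and by 1.66 ± 0.28 after scaling (limma, adjusted p = 1.7e-05 and 0.00118).

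*Wif1* (ENSMUSG00000020218, chr10:121033960-121100650), another protein that binds Wnt ligands, was almost undetected in *Acta2-tdT* saline mice, with 0.126, 0.0549, 0.0468 and 0.150 FPKM and about 1 to 5 implied fragments. In bleomycin mice 5 to 8 it was at 5.41, 2.03, 6.07 and 5.13 FPKM, on about 64 to 218 fragments. Scaled values rose from between 0.965 and 3.43 to between 8.80 and 17.0, with no overlap. The log2 difference was 2.30 ± 0.27 (SE) as deposited and 2.16 ± 0.36 after scaling (limma, adjusted p = 3.2e-05 and 0.00113). The means stood 49.3-fold apart as deposited and 5.95-fold after scaling, and at so few saline fragments the log2 difference is set in part by the pseudocount of 1.

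*Sfrp2* (ENSMUSG00000027996, chr3:83766321-83774316), a close relative of *Sfrp1*, did not follow it. In *Acta2-tdT* cells it went from 0.381, 0.583, 0.702 and 1.10 FPKM with saline to 0.895, 2.18, 6.71 and 6.23 with bleomycin, and the ranges overlapped. Its deposited values rose by 1.36 ± 0.43 (SE) on the log2 scale (limma, adjusted p = 0.0120), a call that was lost with quantile normalization (0.67, adjusted p = 0.0706). After scaling the difference was -0.67 ± 0.48 (adjusted p = 0.260), with 10.3 to 19.1 in saline mice and 2.81 to 15.4 in bleomycin mice. By FPKM, *Sfrp2* stood above 57.3% to 84.5% of the 1962 receptor genes in these saline mice and above 92% to 99.9% in the bleomycin mice. Mice 7 and 8, the pair with *Wnt2*, also had the higher *Sfrp2* of the 4 bleomycin mice on both scales. *Pdgfra-tdT* values spread from 0.0369 to 0.704 FPKM with saline and from 0.144 to 2.63 with bleomycin, the highest being mouse 5.

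*Fzd1* (ENSMUSG00000044674, chr5:4753839-4758035), a Frizzled receptor, rose in *Acta2-tdT* cells from 0.0792, 0.183, 0.188 and 0.602 FPKM in saline mice to 16.4, 5.77, 16.2 and 19.9 in bleomycin mice. The scaled values were 2.15 to 10.4 with saline and 25.0 to 51.6 with bleomycin, 7.27-fold in the means and without overlap. The log2 difference was 3.52 ± 0.37 (SE) as deposited and 2.77 ± 0.43 after scaling (limma, adjusted p = 1.9e-05 and 0.000718). In *Pdgfra-tdT* cells *Fzd1* was at 0.0299, 0.141, 0.641 and 0.170 FPKM with saline and at 0.0284, 0, 0.124 and 0.0275 with bleomycin, resting on about 47 fragments or fewer. Those groups overlapped, and the exact test gave p = 0.0571 on both scales.

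The feedback target *Axin2* and the nuclear factor *Lef1* were called higher as deposited but not after scaling. *Axin2* (ENSMUSG00000000142, chr11:108920349-108950783), a negative feedback target of β-catenin, was at 0.311, 0.193, 0.661 and 0.321 FPKM in *Acta2-tdT* saline mice and at 1.97, 6.11, 4.26 and 4.66 in bleomycin mice. It rose by 1.88 ± 0.28 (SE) on the log2 scale as deposited (limma, adjusted p = 0.000118), close to the median of 1.76 over all 12523 genes tested. After scaling its groups overlapped, at 5.41 to 13.6 and 6.20 to 26.4, and the difference was 0.51 ± 0.47 (adjusted p = 0.387). *Lef1* (ENSMUSG00000027985, chr3:131110471-131224356), a TCF/LEF factor that lymphocytes also use, was at 0.0837, 0.140, 0.280 and 0.249 FPKM with saline and 1.99, 1.13, 2.07 and 1.73 with bleomycin. Its rise of 1.19 ± 0.17 (adjusted p = 8.1e-05) was below the median of all genes, and after scaling the groups lay at 2.27 to 5.77 and 3.74 to 6.26 and differed by 0.25 ± 0.33 (adjusted p = 0.533). By FPKM in *Acta2-tdT* saline mice, *Axin2* stood above 39.8% to 73.4% of the 1962 receptor genes and *Lef1* above 24.4% to 48.9%. In the bleomycin mice these shares were 97.3% to 99.9% and 88.2% to 99.2%. The scaled differences thus set bleomycin values against saline values within the spread of those genes. The 9 T cell markers summed to between 4.98 and 6.77 FPKM in the *Acta2-tdT* saline mice and to between 5.06 and 7.35 in the *Acta2-tdT* bleomycin mice, and scaled to between 102.7 and 141.7 and between 12.3 and 21.9. A list of 26 tissue-restricted genes without a known role in the lung also fell after scaling. Its sums went from between 156.8 and 259.9 to between 4.07 and 35.9.

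**Figure D2:**
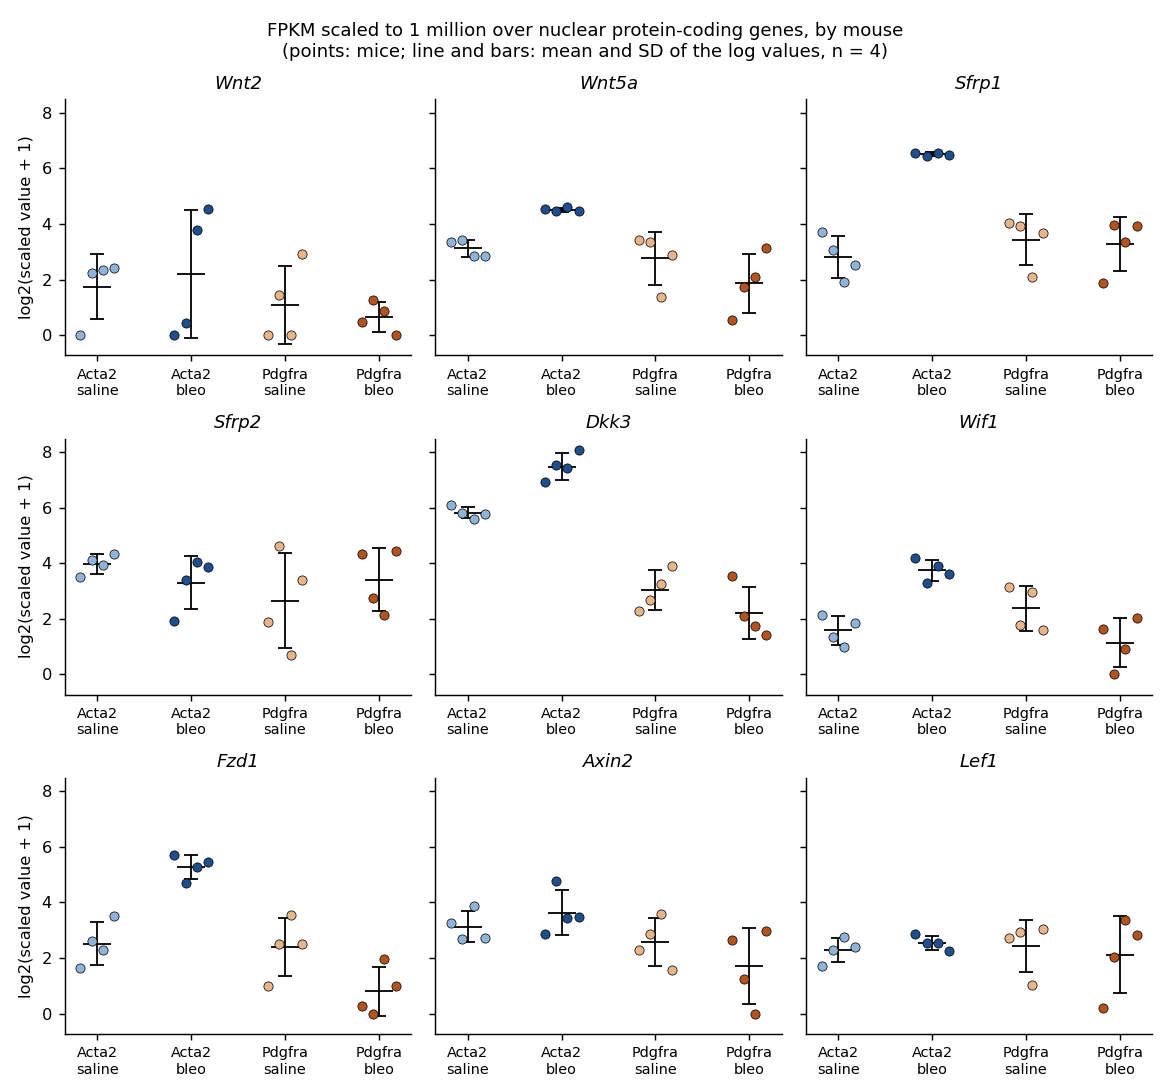
The same 9 genes after scaling each mouse to a sum of 1000000 over nuclear protein-coding genes, on a log2(scaled value + 1) axis, with points, lines and bars as before (mean and SD of log values, n = 4). *Sfrp1* sits at 85.1 to 93.6 in all 4 *Acta2-tdT* bleomycin mice, above every other mouse, while *Axin2*, *Lef1* and *Sfrp2* overlap across the 4 groups.

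Within *Acta2-tdT* bleomycin the scaled levels followed an order. *Dkk3* (119.9 to 265.8) stood above *Sfrp1* (85.1 to 93.6), *Sfrp1* above *Fzd1* (25.0 to 51.6), and *Fzd1* above *Wnt5a* (20.9 to 23.3), with no overlap between these neighbours. *Axin2* (6.20 to 26.4), *Wif1* (8.80 to 17.0), *Sfrp2* (2.81 to 15.4), *Wnt2* (0 to 22.5) and *Lef1* (3.74 to 6.26) followed by their means, and from *Wnt5a* on each overlapped the next. In *Acta2-tdT* saline the order began with *Dkk3* (47.6 to 66.5), *Sfrp2* (10.3 to 19.1) and *Axin2* (5.41 to 13.6), of which the last pair overlapped.

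How the members compare with other genes depends on the scale. Of the 12523 genes tested between bleomycin and saline in *Acta2-tdT* cells, 70.4% were called higher as deposited and 22.6% after scaling, and 16.3% and 31.1% lower. Groups were free of overlap in the upward direction for 67.8% and 21.5% of these genes, and for 7 and 5 of the 9 members. The median log2 difference was 1.76 and -0.01. Genes below 1 FPKM in 5 or more of the 8 mice were not tested, which removed *Wnt2*. Of the other 8 members, *Dkk3* reached 1 FPKM in all 8 mice, *Sfrp2* in 3 bleomycin mice and 1 saline mouse, and the remaining 6 in the 4 bleomycin mice alone. Without the filter all 9 members were tested on equal terms. Then 8 of 9 were called higher as deposited, where 23.8% of 42342 genes were, and 5 of 9 after scaling, where 6.75% were higher and 40.2% lower. The 8 were all but *Wnt2* (1.39 ± 0.78, adjusted p = 0.196), and the 5 were *Sfrp1*, *Fzd1*, *Wif1*, *Dkk3* and *Wnt5a*. Without the filter, limma gave these 5 adjusted p of 0.000116, 0.000225, 0.000446, 0.000169 and 0.000162 as deposited. After scaling they were 0.000295, 0.00125, 0.00200, 0.00147 and 0.00216. Those of *Axin2* and *Lef1* as deposited were 0.00133 and 0.00154. In the fit with the filter, no call of its 8 members changed when any 1 of the 8 mice was left out. Without the filter, where *Sfrp2* passed at an adjusted p of 0.0489, mice were not left out. The 8 fibroblast markers, of which 5 or 6 reached 1 FPKM per mouse with saline and 7 with bleomycin, had summed scaled values of 531.4 to 728.8 with saline and of 4516 to 6835 with bleomycin, and the 8 macrophage markers went from 1928 to 7345 up to 6801 to 22010. The 6 neutrophil markers went from sums of 20673 to 30456 to sums of 2621 to 17912. A list of 7 genes that every cell uses also went up after scaling, from sums of 5287 to 7182 to sums of 17069 to 22094. The part of these lists in the members' differences was not tested.

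**Figure D3:**
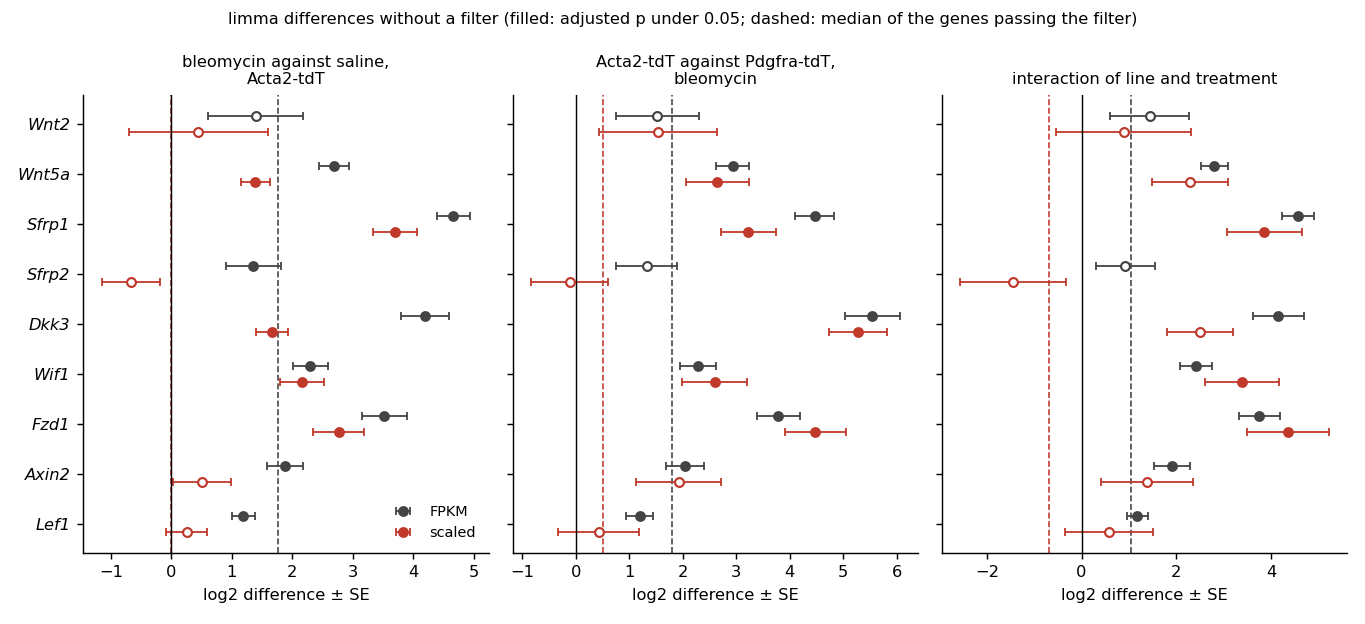
Log2 differences of the 9 genes with their SE (limma without the filter on low values, 4 mice a group), as FPKM in gray and scaled in red, for bleomycin against saline in *Acta2-tdT* cells, for *Acta2-tdT* against *Pdgfra-tdT* cells with bleomycin, and for the interaction. Filled points passed an adjusted p of 0.05 and dashed lines mark the median of all genes passing the filter. In the left panel the gray line is at 1.76 and the red line at -0.01, and *Sfrp1*, *Fzd1*, *Wif1*, *Dkk3* and *Wnt5a* are filled on both scales.

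Between the lines with saline, the question is whether *Acta2*- and *Pdgfra*-labelled cells already differ in Wnt genes in the uninjured lung. *Dkk3* alone passed the filter, through the *Acta2-tdT* group, since it was below 1 FPKM in all 4 *Pdgfra-tdT* mice. It was at 1.95 to 3.12 FPKM in *Acta2-tdT* cells and at 0.114, 0.162, 0.516 and 0.506 in *Pdgfra-tdT* cells, with no overlap. The log2 difference was 1.39 ± 0.19 (SE) as deposited and 2.79 ± 0.50 after scaling (limma, adjusted p = 0.00937 and 0.0307), in a comparison where 2.72% and 2.22% of 8153 genes were called higher. Groups were free of overlap in this direction for 6.56% and 7.75% of the genes. The call was lost without the filter (adjusted p = 0.0687 as deposited and 0.0570 scaled), where 0.126% and 0.294% of 43598 genes were called higher, and, as deposited, with all 16 mice in 1 fit (0.115) or without *Pdgfra-tdT* mouse 2 (0.0534). After scaling it was lost without any of *Acta2-tdT* mice 1 to 4 or *Pdgfra-tdT* mice 1 and 2 (adjusted p = 0.0581 to 0.150). The exact permutation test gave p = 0.0286 on both scales, the smallest it can give. The 8 smooth muscle markers summed to 4888 to 7170 scaled in *Acta2-tdT* saline and to 164.4 to 448.1 in *Pdgfra-tdT* saline, and the 6 neutrophil markers to 20673 to 30456 and 357.6 to 1541. Their part in this difference was not tested. The other 8 members did not pass in the fit without the filter (adjusted p from 0.688 to 0.982 as deposited). *Wnt5a* was free of overlap as deposited (exact p = 0.0286), at 0.301 to 0.362 against 0.0958 to 0.295 FPKM, and overlapped after scaling (exact p = 0.771). They were within the spread of the receptor genes, since the median mouse of each group had them above 8.69% to 72.0% of those genes.

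With bleomycin, *Acta2-tdT* cells held more of most members than *Pdgfra-tdT* cells, in a comparison where 71% of 11995 genes were called higher as deposited and 12.8% after scaling. Without the filter, 7 of 9 members were called higher as deposited (19.4% of 40888 genes) and 5 of 9 after scaling (2.48%). The log2 difference of *Dkk3* was 5.54 ± 0.58 (SE) on the log2 scale as deposited and 5.28 ± 0.56 after scaling (limma with the filter, adjusted p = 5.0e-05 and 0.000591). That of *Fzd1* was 4.48 ± 0.55 after scaling. The scaled means stood 41.0-fold apart for *Dkk3* and 38.3-fold for *Fzd1*. The *Fzd1* values of *Pdgfra-tdT* cells were so low, with about 7 implied fragments or fewer in each of the 4 mice, that the size of this difference is uncertain. The scaled differences of *Sfrp1*, *Wnt5a* and *Wif1* were 3.23 ± 0.54, 2.65 ± 0.57 and 2.60 ± 0.56 (adjusted p = 0.00445, 0.00811 and 0.00797). These 3 genes passed the filter through the *Acta2-tdT* mice, and without it their adjusted p were 0.0135, 0.0251 and 0.0302. *Axin2* differed by 1.92 ± 0.74 after scaling (adjusted p = 0.0793), and passed when *Pdgfra-tdT* mouse 5 was left out (adjusted p = 0.0425). *Lef1* and *Sfrp2* differed by 0.43 ± 0.69 and -0.11 ± 0.70 after scaling (adjusted p = 0.644 and 0.910). As deposited *Sfrp2* passed with the filter (1.33 ± 0.51, adjusted p = 0.0300) and not without it (adjusted p = 0.137), and it failed when any of *Acta2-tdT* mice 7 and 8 or *Pdgfra-tdT* mice 6, 7 and 8 was left out (adjusted p = 0.0615 to 0.0915). Several marker lists separated these groups. In scaled sums, fibroblast markers were at 4516 to 6835 in *Acta2-tdT* and 90.2 to 1281 in *Pdgfra-tdT* cells, smooth muscle markers at 6625 to 10141 and 48.6 to 232.1, neutrophil markers at 2621 to 17912 and 302.6 to 1064, and endothelial markers at 54.5 to 84.8 and 138.6 to 6655. Their part in the differences was not tested.

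In *Pdgfra-tdT* cells none of the 9 members reached FPKM of 1 in 4 mice, so none was tested with the filter, in a comparison where 0.124% of 7275 genes were called on either scale (9 by limma, and 312 as deposited at an unadjusted p under 0.05). Without the filter the member with the smallest unadjusted p was *Fzd1*, at -1.59 ± 0.77 (SE) on the log2 scale after scaling (limma, adjusted p = 0.858). Bleomycin and saline mice overlapped for all 9 members on both scales, and exact permutation p-values ran from 0.0571 to 0.971. At this depth a change may not be detectable, since *Wif1* rested on about 12 fragments or fewer in each of these 8 mice and *Lef1* on about 11 or fewer. The 2 mice with high endothelial markers were often at an end of their group. Saline mouse 3 had its group's lowest FPKM of *Wnt5a*, *Sfrp1*, *Sfrp2* and *Lef1* and its highest of *Dkk3*, *Wif1*, *Fzd1* and *Axin2*, and bleomycin mouse 5 had the lowest of *Wnt5a*, *Sfrp1* and *Lef1* and the highest of *Sfrp2*, *Dkk3*, *Wif1* and *Axin2*. The 8 macrophage markers moved with this contrast, from 668.2 to 2584 scaled with saline to 12953 to 36397 with bleomycin. The mitochondrial share of FPKM ran from 8.02% to 41.8% with saline (median 11.6%), highest in mouse 3. With bleomycin it ran from 9.34% to 34.6% (median 31.8%). The part of these markers and of this share in the members' values was not tested.

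Whether bleomycin acted differently in the 2 lines was tested as an interaction over all 16 mice. Without the filter, 7 of 9 members had a larger log2 change in *Acta2-tdT* cells as deposited, where 11.4% of 44499 genes did, and 3 of 9 after scaling (*Fzd1*, *Sfrp1* and *Wif1*), where 0.225% did. With the filter, the scaled interaction of *Dkk3* passed as well, and the differences were 4.35 ± 0.87 (SE) for *Fzd1*, 3.86 ± 0.80 for *Sfrp1*, 3.39 ± 0.83 for *Wif1* and 2.49 ± 0.70 for *Dkk3* (limma, adjusted p = 0.0174, 0.0185, 0.0274 and 0.0406). Each is the scaled change in *Acta2-tdT* cells minus that in *Pdgfra-tdT* cells. In *Acta2-tdT* cells these changes were 2.77, 3.70, 2.16 and 1.66, in the same order. In *Pdgfra-tdT* cells they were -1.59, -0.16, -1.23 and -0.83, on low values and without a call. In the interaction fit with the filter, 36.6% of 16605 genes were called higher as deposited and 1.05% after scaling. The scaled call of *Dkk3* held only without *Pdgfra-tdT* saline mouse 1 or *Pdgfra-tdT* bleomycin mouse 5, and was lost without any of the other 14 mice (adjusted p = 0.0510 to 0.0985). That of *Wif1* was lost without any of 7 mice (adjusted p up to 0.0662), and that of *Sfrp1* without *Acta2-tdT* bleomycin mouse 8 (adjusted p = 0.0505). *Wnt5a* had a scaled interaction of 2.29 ± 0.79 (adjusted p = 0.0834), which passed without *Pdgfra-tdT* saline mouse 3 (adjusted p = 0.0361). *Axin2*, *Lef1* and *Sfrp2* had scaled interactions of 1.38 ± 0.97, 0.57 ± 0.95 and -1.44 ± 1.12 (adjusted p = 0.431, 0.781 and 0.480).

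The rest of the pathway was counted from a list of 89 genes, of which 80 are no members. In *Acta2-tdT* cells, 33 of those 80 passed the filter between bleomycin and saline. Of the 33, 25 were below 1 FPKM in every saline mouse and so passed through the bleomycin group, where they are high. As deposited 31 were called higher and 0 lower, where 70.4% and 16.3% of all genes tested were, with a median difference of 1.85 against 1.76 over all genes. After scaling 13 were higher and 4 lower, where 22.6% and 31.1% were, with a median of 0.48 against -0.01. Without the filter 79 of the 80 were tested, of which 41 were higher and 1 lower as deposited (23.8% of all genes were higher), and 13 higher and 21 lower after scaling (6.75% and 40.2%). Between the lines with bleomycin, 32 of the 80 passed the filter, 14 of them below 1 FPKM in every *Pdgfra-tdT* mouse. Of the 32, 28 were higher as deposited (71% of all genes tested), and 9 were higher and 1 lower after scaling (12.8% and 15.9%). Without the filter 79 were tested, of which 32 were higher and 0 lower as deposited (19.4% of all genes were higher), and 8 higher and 4 lower after scaling (2.48% and 9.16%). The classes that follow are counted between bleomycin and saline in *Acta2-tdT* cells with the filter, which most of their genes passed through the bleomycin group. Their counts are descriptions to be read beside the 22.6% higher and 31.1% lower of all genes after scaling, and no class was tested against another.

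Of 19 ligands, 5 passed the filter in *Acta2-tdT* cells, 4 of them below 1 FPKM in every saline mouse. Without the filter all 19 were tested, of which 3 were higher and 6 lower after scaling (6.75% and 40.2% of all genes). After scaling, *Wnt10a* and *Wnt11* rose with *Wnt5a*, by 2.39 and 1.66 on the log2 scale (limma, adjusted p = 0.00591 and 0.0109), while *Wnt4* fell by 3.30 (adjusted p = 0.000390), from 20.8 to 31.2 scaled in saline mice to 0.471 to 3.95 in bleomycin mice. As deposited *Wnt4* was not called in this fit and its groups overlapped, at 1.01 to 1.44 FPKM with saline and 0.218 to 1.16 with bleomycin. The scaled median of the 1962 olfactory and vomeronasal receptor genes fell too, from between 4.96 and 8.06 to between 0 and 0.298. The part of that fall in the *Wnt4* difference was not tested. Both genes that ligand-producing cells need for export rose after scaling, *Porcn*, which adds the lipid to Wnt proteins, by 1.48 and *Wls*, their carrier, by 1.26 (adjusted p = 0.00311 and 0.0375). Among 13 secreted inhibitors 6 passed the filter, 4 of them below 1 FPKM in every saline mouse. After scaling 4 of the 6 rose, the 3 members above and *Frzb*, a further relative of *Sfrp1*, by 2.11 (adjusted p = 0.00330). Without the filter 12 inhibitors were tested, of which 4 were higher and 2 lower after scaling (6.75% and 40.2% of all genes).

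Of 17 receptors and co-receptors 5 passed the filter, all of them below 1 FPKM in every saline mouse, and 3 of the 5 rose after scaling. Without the filter 17 were tested, of which 3 were higher and 5 lower. Beside *Fzd1* these were the non-canonical Wnt receptors *Ror2* and *Ryk*, by 1.62 and 1.25 (limma, adjusted p = 0.00175 and 0.0373). Of 11 cytoplasmic transducers 6 were tested, and 2 rose after scaling. *Ctnnb1*, the β-catenin gene, and *Csnk1a1*, a kinase that marks β-catenin for degradation, rose by 1.79 and 1.05 (adjusted p = 0.000704 and 0.0149). Of the 8 nuclear factors 7 were tested, and 0 were called after scaling and 7 as deposited. The most abundant of them, *Tcf7l2*, held 51.9 to 109.3 scaled in saline mice and 44.1 to 92.2 in bleomycin mice. Both tested genes around the R-spondin receptors, *Lgr6* and *Znrf3*, were lower after scaling (-0.97 and -0.95, adjusted p = 0.0260 and 0.0334) and higher as deposited. Without the filter 9 genes of this class were tested, of which 0 were higher and 7 lower after scaling, where 40.2% of all genes were lower.

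Target genes of the pathway did not move as a block after scaling. Of 11 on the list 8 were tested in *Acta2-tdT* cells, and 4 rose and 1 fell after scaling. As deposited 7 of the 8 were called higher, where 70.4% of all genes tested were. The values that follow are scaled unless given as FPKM. *Wisp1*, a secreted matricellular protein, rose by 4.34 on the log2 scale, *Ccnd1*, cyclin D1, by 2.92 and *Myc* by 2.01 (limma, adjusted p = 7.9e-05, 6.0e-05 and 0.000345), and *Wisp1* reached 28.7 to 107.6 FPKM. These genes answer to other pathways too. The feedback genes *Nkd1* and *Nkd2*, like *Axin2*, did not pass after scaling (-0.45 and -0.49, adjusted p = 0.534 and 0.291). *Tnfrsf19*, the one that was lower after scaling (-1.95, adjusted p = 0.00278), was not called as deposited. *Wisp1* was also the one non-member of the list with a scaled interaction (4.76, adjusted p = 0.00468). *Nkd1*, *Nkd2* and *Tnfrsf19* were named after their values had been seen.

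**Figure D4:**
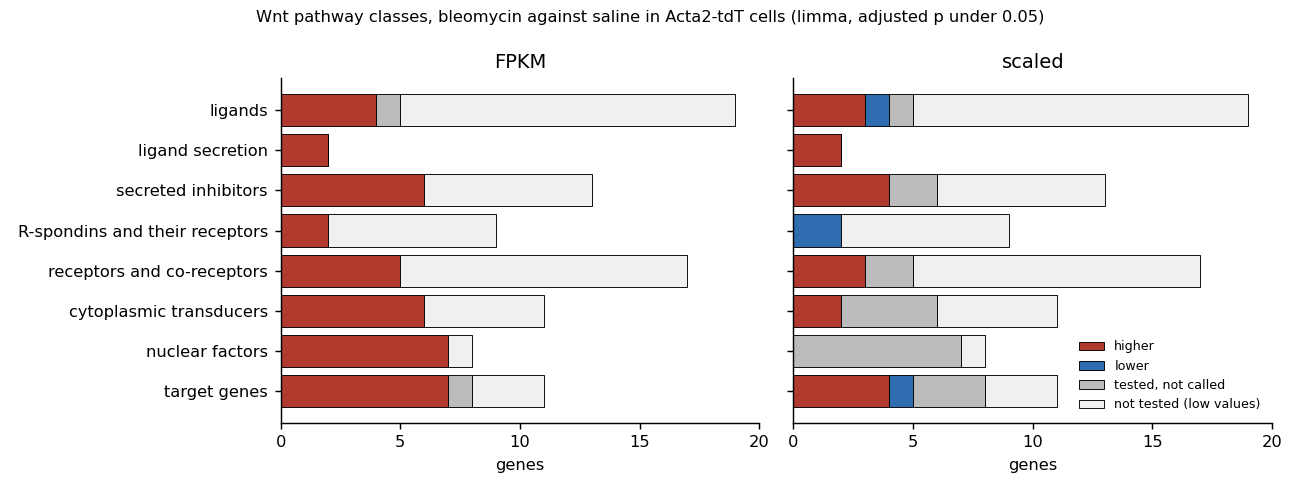
Number of genes in 8 classes of the Wnt pathway list (horizontal axis) called higher, called lower, tested without a call, or not tested for low values, for bleomycin against saline in *Acta2-tdT* cells, with FPKM on the left and scaled values on the right. All 7 tested nuclear factors are called higher as deposited and 0 after scaling, where 70.4% and 22.6% of all genes tested are. Of the 6 tested secreted inhibitors 4 are called higher after scaling, and classes were not tested against each other.

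Genes whose scaled level ran most alike with a member over the 16 mice are given as a description, since the mice fall into 4 groups and share one scaling. The closest to *Dkk3* were *Rcn3*, *Vasn* and *Des*, the last being desmin of muscle cells (Pearson r = 0.980, 0.979 and 0.978 of the log2 values). *Fzd1* ran with *Col5a1*, a fibrillar collagen, *Obsl1* and *Errfi1* (r = 0.961, 0.928 and 0.923), and *Wnt5a* with *Fhl2*, *Fst* and *Nrcam* (0.961, 0.941 and 0.940). *Sfrp1* ran with *P4ha3*, a collagen prolyl hydroxylase subunit, *Loxl3*, a lysyl oxidase, and *Prkg2* (0.930, 0.929 and 0.927). *Wif1* had *Prmt3*, *Flrt2* and *Bdkrb1* (0.913 to 0.881), *Lef1* had *Slc27a1*, *Orai2* and *2610524H06Rik* (0.912 to 0.853), *Axin2* had *Grb10*, *Pcgf1* and *Epdr1* (at most 0.852), and *Sfrp2* had *Abcc5*, *Rnmtl1* and *C5ar1* (0.824 to 0.810). No gene ran closely with *Wnt2*, for which the highest values were those of *Ms4a4a*, *Rabggta* and *Slc36a4* (0.629 to 0.627).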

How the data were processed

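RNA of sorted tdTomato-positive cells was sequenced from 16 mice after SmartSeq2 library preparation. The authors aligned reads with TopHat2 2.1.1 and Bowtie2 to mm10 (GRCm38) and computed FPKM per gene and mouse with Cufflinks 2.1.1, and these deposited FPKM were used without change. Each table had 49534 rows, and rows of 1 gene were summed to 49452 genes. The 15 genes whose Cufflinks status was other than OK in at least 1 mouse were left out. Scaled values divide by the sum over 21961 nuclear protein-coding genes. Depth is not given by FPKM. The width of the Cufflinks bounds implies 600410 to 8329510 fragments per mouse, an approximation, since 48 of 133 member values gave a number within 0.1 of a whole one. No interval needing counts was computed. No 2 mice had identical values.

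Tests used limma 3.58.1 (lmFit, eBayes with trend) in R 4.3.3 on log2(value + 1). Genes that reached 1 FPKM in fewer than 4 of the fitted mice were left out, and the others were tested with Benjamini-Hochberg adjustment over all genes tested and a threshold of 0.05. The scaled fits used the same genes. Fold changes on this scale understate the change of low genes. Exact tests were two-sided permutation tests over the 70 labellings of 8 mice. The p-values set a difference between groups against the spread between these mice. The procedure was tested on simulated data. Tables and plots were made in Python 3.11.15 (NumPy 2.4.6, pandas 2.3.3, matplotlib 3.10.9). Alternatives were a pseudocount of 0.1, no filter, quantile normalization, sample quality weights, all mice in 1 fit, genes of any status, another scaled sum, the replicate number as a block, and each mouse left out, keeping the genes tested.

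The 9 members were named in every comparison, and at most 3 further genes per pathway class by the size of their difference, or by their mean FPKM where none passed. The members and lists were chosen with earlier results of these data known. Promoter sequences are from RefSeq (GRCm38.p6) and exons from GENCODE vM21. The no-filter fit of scaled values and the fit without 2 mice were chosen after seeing the data.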

Additional observations from a re-analysis of the deposited data

Results flagged for a closer look

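Of 72 sets of 4 mice (9 genes, 4 groups, 2 scales), 4 had 1 mouse far from the other 3, about what chance gives at 1 in 20. *Wnt2* was at 0 scaled in *Acta2-tdT* saline mouse 1, against 3.68 to 4.28 in the others. *Sfrp1* was low in *Pdgfra-tdT* saline mouse 3, at 0.195 FPKM against 0.424 to 0.463, and high in *Pdgfra-tdT* bleomycin mouse 6, at 0.730 FPKM against 0.366 to 0.403. *Dkk3* was high in *Pdgfra-tdT* bleomycin mouse 5, at 1.48 FPKM against 0.0474 to 0.161.

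The effect of bleomycin on the log2 scale differed between the lines, tested as the interaction with limma, for 7 members as deposited, where 36.6% of the genes tested were called in that direction. The differences, *Acta2-tdT* minus *Pdgfra-tdT*, were 4.57 for *Sfrp1*, 4.15 for *Dkk3*, 3.76 for *Fzd1*, 2.81 for *Wnt5a*, 2.41 for *Wif1*, 1.91 for *Axin2* and 1.18 for *Lef1*. After scaling, where 1.05% were called in that direction, it differed for 4, by 4.35 for *Fzd1*, 3.86 for *Sfrp1*, 3.39 for *Wif1* and 2.49 for *Dkk3*. Without the filter 3 of these passed, all but *Dkk3* (adjusted p = 0.0742), whose call was also lost without any of 14 of the 16 mice.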

How the results depend on the processing

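With sample quality weights, 2715 genes were called between the lines with saline as deposited and 3449 scaled, against 237 and 191, and between the lines with bleomycin 5296 scaled, against 3448. For bleomycin in *Pdgfra-tdT* cells they gave 548 and 2423 against 9 and 9, and for the interaction 10668 and 4368 against 6605 and 1477. With them *Sfrp2* turned direction between the lines with bleomycin (0.84 scaled) and in the scaled interaction (0.29), and *Lef1* between the lines (-0.068 scaled). *Axin2* between the lines (2.48 scaled), *Wnt5a* in the scaled interaction (2.64) and *Sfrp2* in that of FPKM (1.99) then passed. Without the filter 59 genes were called between the lines with saline as deposited, 2 for *Pdgfra-tdT* cells, 19889 for *Acta2-tdT* cells scaled, against 6722, and 675 for the scaled interaction. All 16 mice in 1 fit gave 126 genes between the lines with saline and 15 for *Pdgfra-tdT* cells. A pseudocount of 0.1 gave 3463 genes for the interaction and quantile normalization 1589, with which *Axin2* lost its call there (1.05) and *Sfrp2* between the lines with bleomycin (0.65). Scaling to the median sum gave 369 for the scaled interaction, where *Wnt5a* passed (0.77). Without *Pdgfra-tdT* saline mouse 3 and bleomycin mouse 5 there were 19 genes as deposited and 23 scaled for *Pdgfra-tdT* cells and 4078 for the scaled interaction, where *Wnt5a* passed (2.31). Between the lines with saline 0 members instead of 1 passed without the filter (both scales) and with all mice in 1 fit. Why these counts moved was not tested.

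The replicate numbers do not pair the mice. The correlation of same-numbered mice's deviations was 0.095, 0.099, 0.157 and -0.086 with saline and -0.088, 0.071, -0.096 and -0.307 with bleomycin, and a mouse correlated best with its own number in 2 of 4 and 0 of 4 cases. With the number as a block between the lines, 36 genes as deposited and 22 scaled were called with saline, and 0 members on either scale (*Dkk3* adjusted p = 0.0589 and 0.156). The block changed no other call of a member.

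Leaving out 1 mouse gave 88 (without *Pdgfra-tdT* mouse 2) to 2397 genes (without *Pdgfra-tdT* mouse 3) between the lines with saline, and 46 (without *Acta2-tdT* mouse 3) to 2998 (without *Pdgfra-tdT* mouse 3) scaled, with 0 to 1 members on each scale. With bleomycin it gave 2120 (without *Acta2-tdT* mouse 8) to 5395 scaled (without *Pdgfra-tdT* mouse 5). For *Pdgfra-tdT* cells it gave 6 (without saline mouse 1) to 73 as deposited, and 7 (without saline mouse 2) to 47 scaled, both highest without bleomycin mouse 8. The scaled interaction ran from 184 genes and 1 member (without *Acta2-tdT* bleomycin mouse 8) to 3757 genes (without *Pdgfra-tdT* bleomycin mouse 5) and 4 members. *Lef1* ranged from -0.20 to 0.85 between the lines with bleomycin and from -0.062 to 1.04 in the interaction, both scaled and both negative without *Pdgfra-tdT* mouse 5, and *Sfrp2* from -0.54 to 0.35 between the lines. With 1 mouse left out, 258 member values of FPKM kept their direction and side of the threshold and 6 lost the call. Of the scaled values 229 kept both, 28 lost the call, 2 gained it and 5 turned direction. Low fragment numbers limit the *Pdgfra-tdT* values.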
